A study of Mus musculus with 12 samples.

Results

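The 10 genes described here are Sqstm1 and 9 genes of the NRF2 antioxidant pathway, namely Nfe2l2, Keap1, Hmox1, Nqo1, Gclc, Gclm, Gsr, Txnrd1 and Srxn1. They were chosen by name, each matched 1 Ensembl identifier, and all 10 of the 54532 genes in each count file passed the filter on low counts. They were measured by sequencing of polyA RNA from L929 cells, an established mouse fibroblast line, and the protocol gives 6 hours after transfection as the time for all libraries. The 12 libraries carry 6 labels, with 2 libraries under each: mock, described as untreated; HT-DNA, hpRNA, G3-YSD and HSV, each described as a transfection; and cGAMP, described as a stimulation. cGAMP is the second messenger that the cytosolic DNA sensor cGAS makes, and the remaining names are spelled as in the labels. All 6 labels share the cell line and the culture conditions, and no genetic change is named for any of them. The labels do not say whether the 2 libraries of a label came from separate cultures, so p-values measure the spread between libraries, part of which may be technical. Titles end in a digit, taken here as the replicate. For HSV the digit might instead stand for a type of virus, and no label settles this.

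NRF2, the protein of Nfe2l2, is a transcription factor that induces enzymes of detoxification, glutathione and thioredoxin metabolism. KEAP1 binds NRF2 and delivers it to a CUL3 ubiquitin ligase for degradation, and oxidants or electrophiles that modify KEAP1 let NRF2 accumulate and act on antioxidant response elements together with small MAF proteins. Sqstm1 encodes p62, a selective autophagy receptor that can bind KEAP1 and carry it to autophagosomes, and Sqstm1 is itself a known NRF2 target. NRF2 activity is set largely at the protein level, which RNA counts do not measure.

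The sequence before the transcription start is shown for 4 of the genes, since the antioxidant response element and the related AP-1 site are the textbook sites of this pathway. RefSeq promoter sequences (GRCm38.p6) were at hand for 7 of the 10 genes, in 9 windows, and the 250 bases before each start were searched on both strands for TGACNNNGC, the core of the antioxidant response element, and for TGAGTCA, the AP-1 site. No 2 matches in the stretches below overlap. TGACNNNGC was found for Gclm, for Nfe2l2 and for 1 of 3 starts of Txnrd1, and 10.2% of all 32851 promoter windows hold it. TGAGTCA was found in 2 places before Srxn1, and 4.46% of all windows hold it. The second of these is followed by gc and so differs from TGACNNNGC in 1 letter. Variants of TGACNNNGC were not searched for, so the search does not show that Srxn1 lacks an antioxidant response element. Neither set of letters was in the windows of Sqstm1, Keap1 or Nqo1. Bases further upstream were not searched either, so these genes are not shown to lack an antioxidant response element. Matches are in capitals, those of Gclm and Txnrd1 lie on the opposite strand and so read as the reverse complement of the letters above, and each stretch stops before the nearest annotated exon. The stretches are chr11:50210828-50210889 on the minus strand for Sqstm1, where the neighbour Mrnip bounds it on the other side, chr3:122245407-122245556 on the plus strand for Gclm, chr2:152105374-152105515 on the plus strand for Srxn1 and chr10:82859056-82859178 on the plus strand for Txnrd1.
Sqstm1: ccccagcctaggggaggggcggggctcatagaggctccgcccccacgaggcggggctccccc
Gclm: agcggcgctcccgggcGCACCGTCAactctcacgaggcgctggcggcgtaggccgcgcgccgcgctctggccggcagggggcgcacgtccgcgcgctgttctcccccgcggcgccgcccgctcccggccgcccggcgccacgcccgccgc
Srxn1: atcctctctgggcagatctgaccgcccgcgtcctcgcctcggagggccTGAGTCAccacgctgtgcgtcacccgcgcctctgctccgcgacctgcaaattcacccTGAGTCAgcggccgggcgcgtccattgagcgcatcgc
Txnrd1: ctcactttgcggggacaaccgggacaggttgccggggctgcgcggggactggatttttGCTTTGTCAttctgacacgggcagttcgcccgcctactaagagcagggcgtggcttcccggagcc

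Total counts lay between 12650790 and 18912400 per library. The nearest neighbour of every one of the 12 libraries carried a different label and the same number: mock to hpRNA, HT-DNA to cGAMP and G3-YSD to HSV. On a scale where 1 is counting noise alone, those pairs differed by 1.41 to 2.04, while the 2 libraries of G3-YSD differed by 82.6 and those of HSV by 76.1, against 3.52 to 9.33 for the other labels. Whether labels were exchanged between libraries was not tested and would change what every group value means. No library was moved, groups are the libraries labelled so, and values are given per library. In the G3-YSD and HSV libraries 23909 to 26496 genes were detected, against 21635 to 22550 in the other 8, and mitochondrial genes took 3.64% and 3.53% of counts in G3-YSD 2 and HSV 2 against 2.03% to 2.52% elsewhere. Of the fibroblast markers, Vim stood at 1822 to 2758 CPM and Col1a1 at 147 to 390 CPM, while Thy1 and Postn stayed at or below 0.488 and 0.491 CPM. Fn1 was 309 to 403 CPM in the G3-YSD and HSV libraries against 200.1 to 235 CPM in the other 8, and the 10 fibroblast markers summed to 2638 to 4255 CPM against 3066 to 3340 CPM. The 15 markers of other cell types summed to 73.7 to 95.6 CPM in the 8 libraries and 75.8 to 84.4 CPM in the G3-YSD and HSV libraries, mostly from Cd68 at 57.5 to 91.3 CPM, and Hbb-bs had 0 counts throughout. Below that sum, the endothelial markers Kdr and Pecam1 reached 10.5 and 3.47 CPM in the G3-YSD and HSV libraries against at most 0.519 and 0.433 CPM in the other 8, the macrophage marker Csf1r 2.48 against 1.04 CPM and the epithelial marker Krt14 1.36 against 0.123 CPM. Other macrophage markers differed in direction. Cd68 was 57.5 to 74.0 CPM in the G3-YSD and HSV libraries against 69.7 to 91.3 CPM in the other 8. Ptprc reached 1.04 against 1.08 CPM, Adgre1 0.908 against 0.628 CPM and Tyrobp 0.886 against 0.739 CPM. Endothelial Cdh5 and epithelial Epcam and Cdh1 stayed at or below 0.248, 0.295 and 0.674 CPM. The part of these markers in the results for G3-YSD and HSV was not tested. CPM is the usual depth-scaled count, here with TMM library sizes.

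Compared per length, Sqstm1 was the most abundant of the 10 genes in every library, at a median of 235 CPM per kb of exon and a range of 212 to 347 over the 12 libraries. Srxn1 followed with a median of 81.8 CPM per kb, Txnrd1 with 54.5, Gsr with 41.8, Nfe2l2 with 33.5, Hmox1 with 26.9, Gclc with 22.3, Keap1 with 19.1, Gclm with 11.7 and Nqo1 with 8.98. The range of Sqstm1 did not overlap that of Srxn1, which reached 90.2 CPM per kb. Nfe2l2 at its lowest, 30.5, was just above Hmox1 at its highest, also 30.5 after rounding, and every other pair of neighbours in this order overlapped over the 12 libraries. Nqo1, a quinone reductase and standard readout of NRF2, was lowest by median, with 104 to 279 counts per library.

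**Figure D1:**
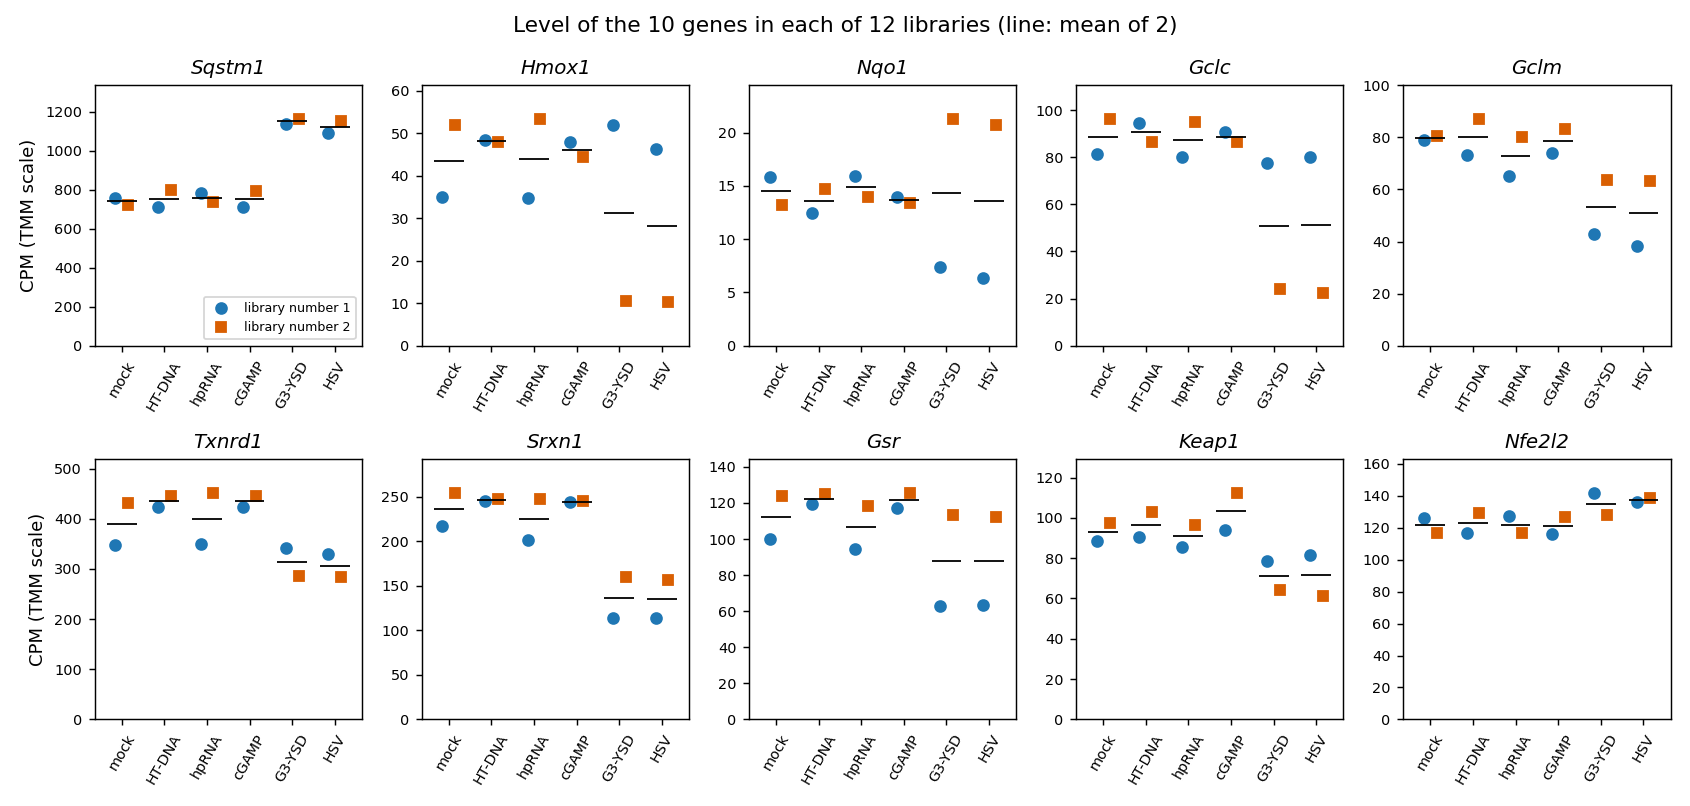
Level of each of the 10 genes in CPM on the TMM scale (vertical axis, from 0) by label (horizontal axis), with circles for number 1, squares for number 2 and a line at the mean of the 2 libraries. Sqstm1 sits at 1091 to 1163 CPM in the 4 G3-YSD and HSV libraries and at 710 to 799 CPM in the other 8, while Hmox1, Nqo1 and Gclc split by number within G3-YSD and within HSV.

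Sqstm1 rose in the libraries labelled G3-YSD and HSV and was the 1 gene of the 10 that passed the test in either comparison with mock. Sqstm1 (ENSMUSG00000015837, mm10 chromosome 11, 50199366 to 50210827, minus strand) stood at 758 and 721 CPM in mock 1 and 2, 710 and 799 in HT-DNA, 782 and 734 in hpRNA, 714 and 793 in cGAMP; the G3-YSD libraries had 1138 and 1163 and the HSV libraries 1091 and 1151. The 4 G3-YSD and HSV libraries were all above the other 8, as they were for 12.8% of all genes tested on the TMM scale. For Sqstm1 the lowest of the 4 exceeded the highest of the 8 under each of 4 scalings tried. The mean went from 740 ± 26.5 CPM in mock to 1151 ± 17.6 CPM in G3-YSD and 1121 ± 41.8 CPM in HSV (SD, n = 2 each). That is a 1.56-fold difference for G3-YSD, or 0.64 ± 0.12 on the log2 scale (± standard error; edgeR adjusted p = 0.0251), and a 1.52-fold difference for HSV, or 0.60 ± 0.12 (edgeR adjusted p = 0.0275). Higher values were seen in 2 of 2 libraries of each label. The 2 comparisons share the mock libraries and are not independent of each other. G3-YSD and HSV libraries of the same number also differed by only 2.04 (number 1) and 1.41 (number 2) on the scale of counting noise. The 4 libraries are thus closer to 2 values than to 4, while the fit counts all 12 libraries as separate. With only the 4 libraries compared, the edgeR adjusted p of Sqstm1 was 0.39 for G3-YSD and 0.384 for HSV.

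Among all 16840 genes tested, edgeR's quasi-likelihood test called 5.16% in G3-YSD against mock, 1.79% higher and 3.37% lower, and 5.2% in HSV against mock, 1.73% higher and 3.47% lower. The 1 in 10 called here is a single gene and is read beside those shares. With upper quartile scaling the all-gene median in G3-YSD against mock moved from 0.107 to 0.243 on the log2 scale and the calls from 302 higher and 567 lower to 364 higher and 314 lower. For HSV the median moved from 0.105 to 0.257 and the calls from 291 higher and 585 lower to 347 higher and 304 lower. Sqstm1 was still called in both with that scaling, at 0.77 and 0.75. Sqstm1 lost its call without mock 1, with an edgeR adjusted p of 0.177 for G3-YSD and 0.191 for HSV, and without mock 2, at 0.175 and 0.188, where 0 genes of all those tested were called. It also lost it without G3-YSD 2 (edgeR adjusted p = 0.0696), without HSV 1 (0.0511), without HSV 2 (0.0847) and without the filter on low counts (0.116 and 0.14), while the log2 fold change stayed between 0.55 and 0.67. The source name differs in wording between mock and these libraries, so a batch and the treatment cannot be told apart. In bulk RNA, more or fewer cells of a kind and more or less RNA per cell cannot be told apart either.

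No difference from mock was detected for the 10 genes in HT-DNA, hpRNA or cGAMP. In each of these comparisons edgeR called 0 of 10 genes (0.0% of all genes), 0 of 10 had an unadjusted p under 0.05 and DESeq2 called 0 of 10. Of all 16840 genes, only 62, 58 and 99 had such a p in HT-DNA, hpRNA and cGAMP, so the 0 of 10 carries little weight. Log2 fold changes over the 10 genes ran from -0.09 to 0.16 for HT-DNA, from -0.13 to 0.04 for hpRNA and from -0.09 to 0.16 for cGAMP, with standard errors from 0.12 for Sqstm1 to 0.77 for Hmox1. These errors come from the fit of all 12 libraries, so the spread between the 2 libraries of G3-YSD and of HSV enters them. For Hmox1 the standard error in G3-YSD against mock was 0.78. HT-DNA against cGAMP, and G3-YSD against HSV, also gave 0 of 10 calls by either tool (0.0% of all genes by edgeR) with 0 at an unadjusted p under 0.05. Of all genes, 44 and 33 had such a p in these 2 comparisons. The direct values between G3-YSD and HSV ran from -0.02 to 0.15 on the log2 scale. Without the G3-YSD and HSV libraries in the fit, chosen after seeing the data, the counts for HT-DNA, hpRNA and cGAMP against mock were also 0 of 10. In these 8 libraries the numbers differed partly in the same direction. With the replicate block as well the counts stayed 0 of 10. Of all genes, 14 were then called for HT-DNA, 0 for hpRNA and 23 for cGAMP. With the block and only the 4 libraries compared, 6, 182 and 6 of all genes were called, and 0 of the 10.

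**Figure D2:**
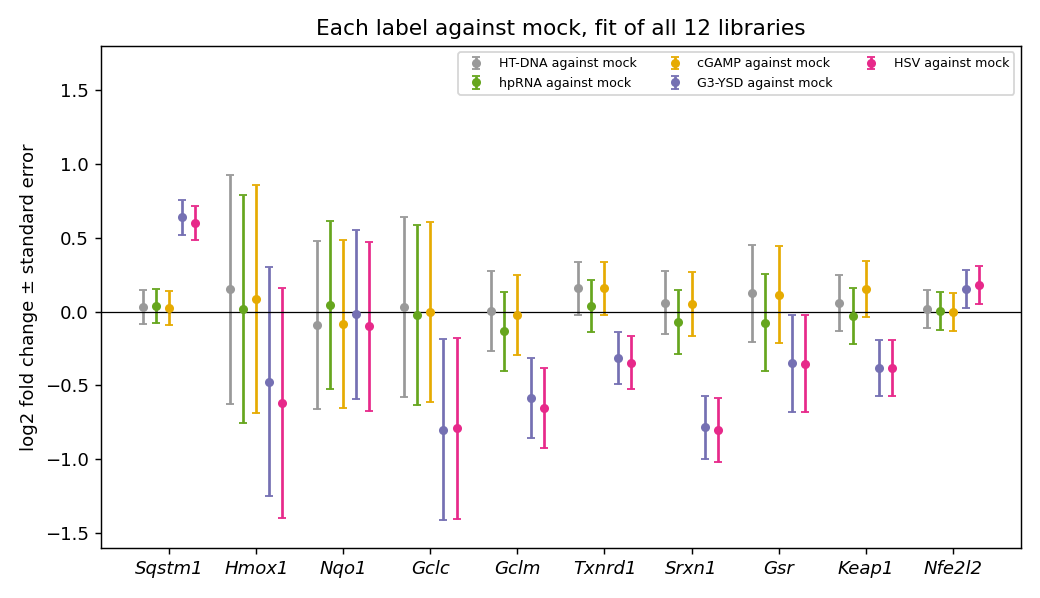
Log2 fold change of each of the 10 genes (vertical axis) for each of the 5 other labels against mock, from the fit of all 12 libraries, with bars of 1 standard error. HT-DNA, hpRNA and cGAMP stay between -0.13 and 0.16, and Sqstm1 alone passes the test, at 0.64 in G3-YSD and 0.60 in HSV.

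Neither regulator passed the test. Keap1 (chromosome 9, 21229730 to 21239361), the NRF2 inhibitor, stood at 88.7 and 97.3 CPM in mock, 90.3 and 103 in HT-DNA, 85.3 and 96.7 in hpRNA, 94.1 and 112 in cGAMP; the G3-YSD libraries had 78.7 and 64.1 and the HSV libraries 81.6 and 61.2. Its 4 G3-YSD and HSV libraries were below the other 8 with 3 scalings and overlapped them with upper quartile scaling. The log2 fold change was -0.38 in both comparisons with mock, with a standard error of 0.19 and edgeR adjusted p-values of 0.255 and 0.254. Nfe2l2 (chromosome 2, 75675513 to 75704641), which encodes NRF2, ranged from 116 to 129 CPM in the 8 libraries and from 128 to 142 CPM in the G3-YSD and HSV libraries, so the ranges overlapped on the TMM scale, while with 2 of the 4 scalings the G3-YSD and HSV libraries were all above the other 8. Its log2 fold changes were 0.15 and 0.18 with a standard error of 0.13.

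The ratio of Nfe2l2 to Keap1 within a library needs no scaling between libraries. Per kb of exon it lay between 1.39 and 1.85 in the 8 other libraries. It was 2.23 in G3-YSD 1, 2.47 in G3-YSD 2, 2.06 in HSV 1 and 2.80 in HSV 2. All 4 were above the other 8, whichever number the library carried. Among single genes tested, 12.8% had all 4 above the other 8 and 15.3% all 4 below, and the share among ratios of other genes was not taken. A ratio shows that the pair changed unequally, not which of the pair did, and the ratio was chosen after the values were seen.

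The glutathione genes differed among themselves. Gclc (chromosome 9, 77754535 to 77794485) encodes the catalytic subunit of glutamate-cysteine ligase, the rate-limiting enzyme of glutathione synthesis. It stood at 81.3 and 96.3 CPM in mock, 94.7 and 86.7 in HT-DNA, 80.1 and 94.95 in hpRNA, 90.9 and 86.5 in cGAMP; the G3-YSD libraries had 77.8 and 24.1 and the HSV libraries 80.1 and 22.4. G3-YSD 1 and HSV 1 were thus near the bottom of the other 8, and G3-YSD 2 and HSV 2 were far below all of them. Gclm (chromosome 3, 122245557 to 122270732), the modifier subunit of the same enzyme, stood at 79.1 and 80.7 CPM in mock, 73.3 and 87.1 in HT-DNA, 65.3 and 80.3 in hpRNA, 74.1 and 83.4 in cGAMP; the G3-YSD libraries had 42.9 and 63.6 and the HSV libraries 38.3 and 63.3. For Gclm the low libraries were those of number 1, the reverse of Gclc.

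The ratio of Gclc to Gclm per kb showed the split of the subunits directly. It lay between 1.66 and 2.16 in the 8 libraries, was 3.03 in G3-YSD 1 and 3.49 in HSV 1, and was 0.632 in G3-YSD 2 and 0.591 in HSV 2. The balance between subunits thus lay on opposite sides of the other 8 libraries within 1 label. Gsr (chromosome 8, 33652523 to 33698163), the reductase that regenerates reduced glutathione, ranged from 94.5 to 126 CPM in the 8 libraries. It was 62.7 and 63.3 CPM in G3-YSD 1 and HSV 1 and 113 and 112 CPM in G3-YSD 2 and HSV 2, so its number 1 libraries alone lay below the other 8. Against mock, log2 fold changes in G3-YSD and HSV were -0.80 and -0.79 for Gclc with a standard error of 0.61, -0.59 and -0.65 for Gclm with 0.27, and -0.35 in both for Gsr with 0.33. With 1 library left out Gclc ran from -1.89 to -0.21 in G3-YSD and from -2.0 to -0.16 in HSV. None of the 3 passed the edgeR test, and edgeR adjusted p-values ran from 0.188 to 0.528.

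Both genes of thiol repair had lower values in G3-YSD and HSV than in mock. Srxn1 (chromosome 2, 152105516 to 152111376), the sulfiredoxin that repairs over-oxidised peroxiredoxins, stood at 217 and 254 CPM in mock, 245 and 247 in HT-DNA, 201 and 248 in hpRNA, 244 and 244 in cGAMP; the G3-YSD libraries had 114 and 159 and the HSV libraries 114 and 156. The 4 G3-YSD and HSV libraries were below the other 8 under all 4 scalings, as they were for 15.3% of all genes tested on the TMM scale. The log2 fold changes were -0.79 and -0.80 with a standard error of 0.22, and edgeR adjusted p-values of 0.0784 and 0.0733 missed the threshold. DESeq2 called Srxn1 in both, at adjusted p-values of 0.0157 and 0.0137. Txnrd1 (chromosome 10, 82833951 to 82897712), the cytosolic thioredoxin reductase, ranged from 348 to 452 CPM in the 8 libraries and from 284 to 341 CPM in the 4, with log2 fold changes of -0.31 and -0.35 and a standard error of 0.18. Its libraries did not overlap on the TMM scale or without scaling, but did with 2 other scalings.

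Taking the TMM scale, 1 of the 10 genes had all 4 G3-YSD and HSV libraries above the other 8, against 12.8% of all genes tested, and 5 (Gclc, Gclm, Txnrd1, Srxn1 and Keap1) had all 4 below, against 15.3%. For Gclc that rests on 80.07 CPM in HSV 1 against 80.11 CPM in hpRNA 1, and with upper quartile scaling Srxn1 was the only one of the 5 still below. The grouping of these 2 labels was made after seeing the data.

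Hmox1 and Nqo1, the classical NRF2 readouts, split by number in opposite directions. Hmox1 (chromosome 8, 75093621 to 75100589), the heme oxygenase that BACH1 represses and NRF2 induces, stood at 35.0 and 52.0 CPM in mock, 48.5 and 48.0 in HT-DNA, 34.7 and 53.4 in hpRNA, 47.8 and 44.4 in cGAMP; the G3-YSD libraries had 52.0 and 10.5 and the HSV libraries 46.2 and 10.2. G3-YSD 1 and HSV 1 lay within the range of the other 8, while G3-YSD 2 and HSV 2, with 137 and 123 counts, were below all of them. Nqo1 (chromosome 8, 107388225 to 107403206) did the reverse: it was 12.5 to 15.9 CPM in the 8 libraries, 7.38 and 6.38 CPM in G3-YSD 1 and HSV 1 and 21.3 and 20.7 CPM in G3-YSD 2 and HSV 2. The means of G3-YSD, 31.2 ± 29.3 CPM for Hmox1 and 14.3 ± 9.84 CPM for Nqo1 (SD, n = 2), therefore describe neither library. Against mock neither gene passed the edgeR test, with log2 fold changes of -0.47 and -0.62 for Hmox1 at a standard error of 0.78 and of -0.02 and -0.10 for Nqo1 at 0.57.

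Within a library the ratio of Hmox1 to Nqo1 per kb was 1.93 to 3.50 in the 8 libraries, 6.24 and 6.43 in G3-YSD 1 and HSV 1, and 0.439 and 0.435 in G3-YSD 2 and HSV 2. The number 1 libraries were thus above the other 8 and the number 2 libraries below them. The number also went with the share of mitochondrial counts (3.64% and 3.53% in G3-YSD 2 and HSV 2) and with the genes detected (26496 and 26241 in G3-YSD 1 and HSV 1, 23997 and 23909 in G3-YSD 2 and HSV 2), and the part of these in the values was not tested.

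**Figure D3:**
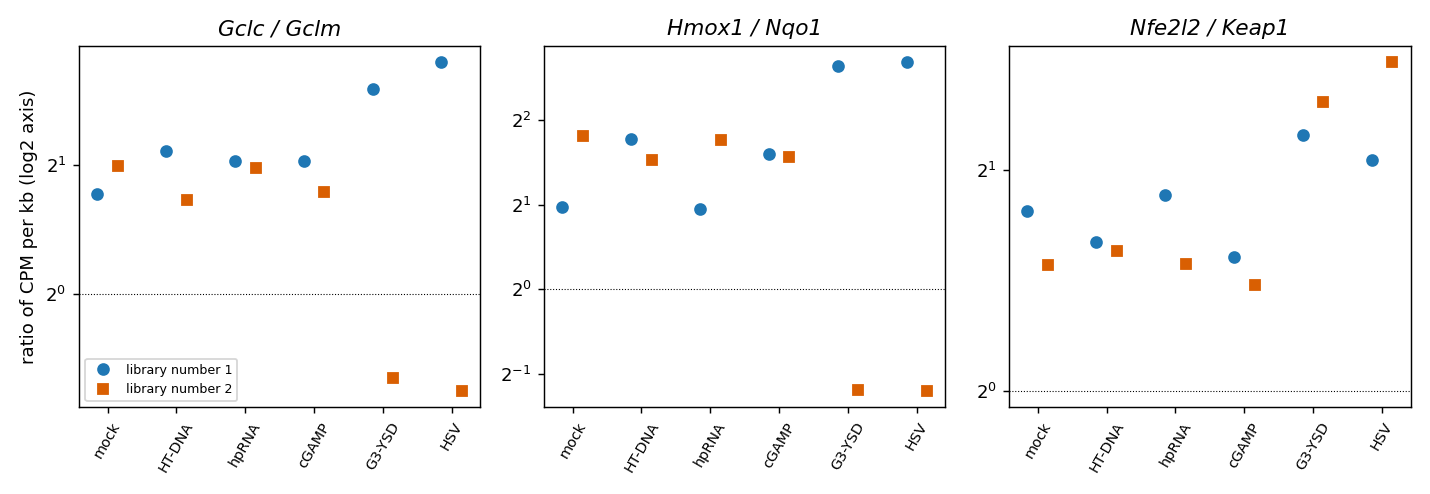
Ratios of 2 genes within each library, in CPM per kb of exon on a log2 axis, by label, with circles for number 1 and squares for number 2. Gclc over Gclm and Hmox1 over Nqo1 lie above the other 8 libraries in G3-YSD 1 and HSV 1 and below them in G3-YSD 2 and HSV 2, while Nfe2l2 over Keap1 is 2.06 to 2.80 in all 4 against 1.39 to 1.85.

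The difference between numbers was then taken as a comparison of its own, chosen after seeing the data: number 2 against number 1 within G3-YSD and HSV, with the label as a term. Its replicates are a G3-YSD and an HSV library of the same number, which differ by only 1.41 and 2.04 on the scale of counting noise, so its errors and calls cover little more than counting error and say nothing of the spread between cultures. The edgeR test called 8 of the 10 genes, beside 77.2% of all genes. DESeq2 also called 8 of the 10, beside 8071 of 15971 genes, and upper quartile scaling gave 9. Nothing particular to these genes is read from these counts. On the log2 scale (± standard error), Hmox1 differed by -2.22 ± 0.09, Gclc by -1.74 ± 0.07, Keap1 by -0.33 ± 0.06 and Txnrd1 by -0.21 ± 0.04. Nqo1 was higher in number 2 at 1.63 ± 0.12, Gsr at 0.87 ± 0.05, Gclm at 0.67 ± 0.06 and Srxn1 at 0.50 ± 0.05. Sqstm1 at 0.08 and Nfe2l2 at -0.04 were not called. Hmox1 and Gclc were over 2-fold higher in number 1 in both labels, as were 20.8% of all genes, and Nqo1 was over 2-fold lower, as were 9.3%. In the 8 other libraries, where the nearest pairs differ by 1.55 to 1.86, the same contrast called 1 of the 10, Keap1 at 0.20, beside 6.53% of all genes (4.11% higher, 2.43% lower).

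Further genes of the pathway were taken from 5 lists. Their counts are read beside the all-gene shares called by edgeR, 1.79% higher and 3.37% lower in G3-YSD against mock and 1.73% and 3.47% in HSV against mock, and all-gene medians of 0.107 and 0.105. DESeq2 called far more, 2208 of 15860 genes in G3-YSD and 2272 of 16187 in HSV, and its counts below are read beside those. Of 16840 genes, 4072 in G3-YSD and 4092 in HSV had an unadjusted p under 0.05 in edgeR. Of 32 NRF2 target enzymes and transporters, edgeR called 0 higher and 4 lower in G3-YSD and 0 higher and 3 lower in HSV, with medians of 0.10 and 0.07, and 18 and 19 of the 32 had log2 fold changes above 0. DESeq2 called 4 and 5 of them, and 6 and 7 had an unadjusted p under 0.05 in edgeR. Slc7a11, the cystine transporter subunit, fell in G3-YSD (log2 fold change -1.30 ± 0.29, edgeR adjusted p = 0.0406, and 0.0644 with upper quartile scaling), at 18.5 to 24.5 CPM in the G3-YSD and HSV libraries against 41.2 to 68.7 CPM in the other 8. Cbr3, a carbonyl reductase, fell in both, with log2 fold changes of -0.95 in G3-YSD and -1.06 in HSV. Lrp8, a lipoprotein receptor, fell in both, with a log2 fold change of -0.93, and lost its HSV call with upper quartile scaling at an edgeR adjusted p of 0.0502. Trim16 fell in both, at -0.85 and -0.89. In every case the 4 libraries lay below the other 8, as they did for 15.3% of all genes tested. The calls of these 4 genes were lost without mock 1 and without mock 2. Slc7a11, Cbr3, Lrp8 and Trim16 each also lost a call when 1 of the G3-YSD or HSV libraries was left out.

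The 28 other genes of the glutathione and thioredoxin systems had 1 called higher and 0 lower in each comparison, and a median of 0.21 in G3-YSD and 0.15 in HSV. DESeq2 called 3 of them in each, and 4 and 5 had an unadjusted p under 0.05 in edgeR. The 1 gene was Txnip, whose protein binds and inhibits thioredoxin and which answers to glucose through MondoA and ChREBP. It was 48.3 to 111 CPM in the 8 libraries and 542 to 665 CPM in the G3-YSD and HSV libraries, with log2 fold changes of 2.90 and 2.80, standard errors of 0.34 and edgeR adjusted p-values of 0.00891 and 0.0101. Its call was likewise lost without mock 1 and without mock 2. Of 17 genes of superoxide and heme handling edgeR called 0 in either comparison, where 5 had an unadjusted p under 0.05 in each and DESeq2 called 3 in G3-YSD and 4 in HSV.

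Of 26 NRF2 partners and regulators 1 rose and 0 fell in each comparison, with medians of -0.07 and -0.13. DESeq2 called 3 of them in each, and 5 and 6 had an unadjusted p under 0.05 in edgeR. Nfe2l3, a relative of Nfe2l2, was 1.51 to 2.26 CPM in the 8 libraries and 5.79 to 11.8 CPM in the 4, with log2 fold changes of 2.04 and 2.22 (edgeR adjusted p = 0.0226 and 0.018). Its calls were lost without mock 1, without mock 2, without G3-YSD 2 (1.43, edgeR adjusted p = 0.0606) and without HSV 2 (edgeR adjusted p = 0.0619). Of 38 selective autophagy genes other than Sqstm1, edgeR called 0 higher and 1 lower in each comparison, with medians of 0.11 and 0.07. DESeq2 called 6 in G3-YSD and 4 in HSV, and 8 and 7 had an unadjusted p under 0.05 in edgeR. The gene edgeR called was Tfeb, a transcription factor for lysosome and autophagy genes, at 11.04 to 12.9 CPM against 19.5 to 25.2 CPM in the other 8. Tfeb lost its call with upper quartile scaling, at an edgeR adjusted p of 0.0862 in G3-YSD and 0.0619 in HSV, and with any 1 of the compared libraries left out, at 0.0635 to 0.238. In HT-DNA, hpRNA and cGAMP against mock edgeR called 0 genes of the 5 lists (0.0% of all genes), with 0 at an unadjusted p under 0.05 and 0 called by DESeq2. Only 62, 58 and 99 of all 16840 genes had an unadjusted p under 0.05 there, so these counts of 0 carry little weight.

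The lists were also read between numbers. In number 2 against number 1 within G3-YSD and HSV, 30 of the 32 NRF2 target enzymes and transporters were called higher and 1 lower, with a median log2 fold change of 0.68, where 38.0% of all genes were called higher and 39.2% lower at a median of -0.01. As for the 10 genes, the calls of this contrast cover little more than counting error, and the counts for the lists only describe these 4 libraries. Trim16, lower at -0.35, and Slc7a11, not called at 0.14, were the exceptions. These and the genes named in the next sentences were picked after their values were seen. Fth1, the ferritin heavy chain, was 1326 and 1246 CPM in G3-YSD 1 and HSV 1 and 2563 and 2522 CPM in G3-YSD 2 and HSV 2, on opposite sides of the 1571 to 1867 CPM of the other 8. G6pdx, which supplies NADPH, was 67.3 and 60.6 CPM against 149 and 140 CPM, with 118 to 124 CPM in the other 8. Me1, the malic enzyme, was 49.0 and 39.7 CPM against 86.7 and 87.7 CPM, the latter within the 85.2 to 103 CPM of the other 8. Hmox1, Gclc and, by less, Txnrd1 at -0.21 thus went against most of the listed targets in this contrast. Nqo1, Gsr, Gclm and Srxn1 went with them, and Sqstm1 at 0.08 was not called.

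The glutathione and thioredoxin list had 20 of 28 called higher and 4 lower, with a median of 0.51. The superoxide and heme list had 9 of 17 higher and 5 lower, and selective autophagy 18 of 38 higher and 11 lower. The NRF2 partners and regulators had 12 of 26 higher and 12 lower, and among the lower ones were all 3 small MAF genes and Bach1, the repressor of Hmox1. Maff was 246 and 230 CPM in G3-YSD 1 and HSV 1 and 29.3 and 29.0 CPM in G3-YSD 2 and HSV 2, against 29.7 to 38.8 CPM in the other 8. Mafk was 207 and 217 CPM against 28.1 and 30.9 CPM, on opposite sides of 68.5 to 176 CPM. Mafg was 210 and 204 CPM, within the 196 to 230 CPM of the other 8, against 74.4 and 78.4 CPM. Bach1 was 103 and 109 CPM against 40.1 and 37.2 CPM, on opposite sides of 59.5 to 69.2 CPM.

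**Figure D4:**
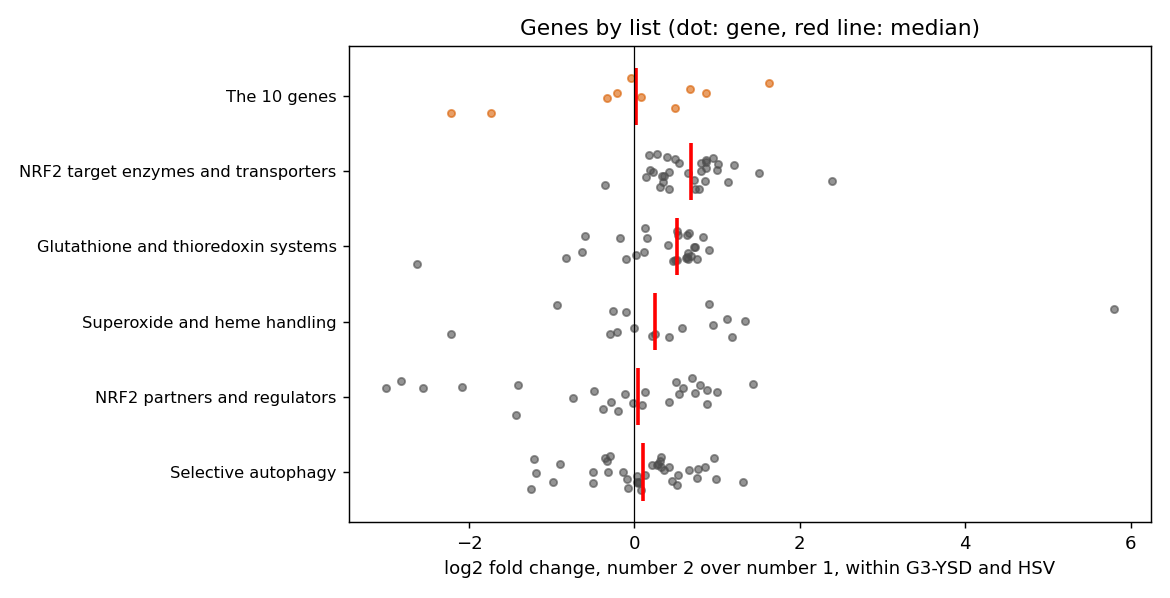
Log2 fold change of number 2 over number 1 within G3-YSD and HSV (horizontal axis) for the 10 genes and for each list (rows), with 1 dot per gene, scattered vertically for legibility, and a red line at the median. The NRF2 targets lie almost wholly to the right, with a median of 0.68, while the 10 genes spread from -2.22 to 1.63, and the dot at 5.80 is Slc40a1, an iron exporter at or near 0 counts in the number 1 libraries, so that its fitted value is no bound.

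The genes whose pattern over the 12 libraries was most like that of Sqstm1, among 10480 genes with a mean of at least 5 CPM, were Nr1h4, Sla, Pik3r1, Atl1 and Pik3c2a, with Pearson r of 0.987 to 0.988 on log2(CPM + 1). Pik3r1, a regulatory subunit of PI3 kinase, was 126 to 135 CPM in the G3-YSD and HSV libraries and 58.3 to 65.5 CPM in the other 8. For Hmox1 they were Otud4, Rrs1, Slc7a1, Map1b and Knop1, with r of 0.995 to 0.996. Rrs1, a ribosome assembly factor, spanned 25.1 to 160 CPM in the G3-YSD and HSV libraries, reaching both below and above the 99.8 to 150 CPM of the other 8. These correlations are descriptions over 12 libraries that fall into few separate clusters, and carry no test.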

How the data were processed

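The authors deposited unnormalized counts by Ensembl identifier for each library. The submitters' processing notes list HISAT2, HTSeq and mm10 with no version. Neither annotation release nor strand setting is given in the sources used here, so counts of overlapping genes cannot be told apart by strand: exons of Mrnip cover 17.3% of the exon bases of Sqstm1 (at most 72 counts for Mrnip) and an antisense gene covers 10.9% of those of Keap1. Of 54532 genes 54409 matched GENCODE M21 (GRCm38), the source of symbols, positions and exon lengths.

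In R 4.3.3, edgeR 4.0.16 filtered low counts by its default (16840 genes left), scaled libraries by TMM and fitted the 12 libraries together with 1 term per label (6 residual degrees of freedom). Calls are quasi-likelihood tests with a Benjamini-Hochberg adjusted p under 0.05 over all genes, and fold change errors are standard errors from that test. Alternatives were upper quartile scaling, DESeq2 1.42.0, no filter, the replicate number as a block, the 4 libraries compared alone, and each library left out.

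The replicate numbers were checked by the correlation, across genes, of the difference between a label's libraries. It was 0.365 to 0.654 for every pair among mock, HT-DNA, hpRNA and cGAMP, so their numbers differed partly in the same direction. The correlation was 0.939 between G3-YSD and HSV, and -0.355 and -0.357 between mock and these labels. A shared direction does not make same-numbered libraries pairs. On the scale of counting noise mock 2 differed from HT-DNA 1 by 2.31 and from HT-DNA 2 by 2.86, and from cGAMP 1 by 2.31 and cGAMP 2 by 3.865. For mock 1 the number 1 libraries were nearer, with 7.45 against 11.48 for HT-DNA. The members and lists were chosen with earlier results of these data known. Named were the 10 genes, per list and comparison up to 4 called genes of at least 5 CPM with the largest change, and the 5 nearest patterns.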

Additional observations from a re-analysis of the deposited data

How the results depend on the processing

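Of the 10 genes, DESeq2 called 2 in G3-YSD against mock and 2 in HSV against mock, Sqstm1 and Srxn1 in each, where edgeR called 1. With the replicate block in the fit of all 12 libraries the counts were also 2 and 2. With only the 4 libraries compared, with or without the replicate block, 0 were called in either comparison, and the fit has fewer samples. Without the filter on low counts 1 was called in each, but it was Srxn1 and not Sqstm1, whose edgeR adjusted p was 0.116 and 0.14. Leaving out 1 library gave 0 to 1 for G3-YSD, with the call kept without G3-YSD 1 alone, and 0 to 0 for HSV; Sqstm1 stayed at 0.60 to 0.67 and 0.55 to 0.63 on the log2 scale, with edgeR adjusted p-values of 0.0478 to 0.177 and 0.0511 to 0.191. Crossed numbers, chosen after seeing the data because the numbers of mock and these labels ran against each other, called 0 of 10 and 984 and 999 of all genes. All-gene calls for G3-YSD were 869 with edgeR, 2208 with DESeq2, 1894 without the filter and 0 without mock 1 or mock 2; for HSV they were 876, 2272, 1892 and 0. Without G3-YSD 2 the count was 77 and without HSV 2 it was 130. The count of 0 of 10 in the other 5 planned comparisons was the same under every setting run, the block included. Values that changed sign were all uncalled: Nqo1 in G3-YSD was 0.14 with upper quartile scaling, 0.0138 with DESeq2 and 0.0306 with 4 libraries, and in HSV 0.0736 with upper quartile scaling. With 1 library left out, Nqo1 ran from -0.99 to 0.55 in G3-YSD and -1.19 to 0.51 in HSV, Hmox1 from -2.06 to 0.24 and -2.11 to 0.0768, and Gsr in G3-YSD from -0.85 to 0.00523. In number 2 against number 1 within G3-YSD and HSV, all-gene calls went from 12325 with edgeR to 8071 with DESeq2. In number 2 against number 1 within the other 4 labels the 1 call became 0 with upper quartile scaling and 3 without the filter. The cause of these changes was not tested.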
